A study of Mus musculus with 11 samples.

Results

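The immediate early factor genes Egr1, Egr2, Fos, Fosb, Jun, Junb, Jund, Ier2, Ier3 and Ier5 were followed by symbol through haematopoietic stem cells (HSCs) of the newborn mouse liver. They are 10 of the 24039 genes in the size-gated files, each represented by 1 RefSeq transcript. All 11 libraries came from wild-type C57BL/6 mice at postnatal day 0, and each held 100 to 200 cells sorted on CD150, Sca1 and cKit after removal of cells with lineage markers or CD48. The HSCs of 4 libraries came from the upper part of forward scatter area (FSC-A High) and those of 3 from the lower part (FSC-A Low), while for the other 4 the labels name no scatter gate (WT HSC). This cytometer reading is commonly taken as a measure of cell size. The labels give neither the limits of the gates nor the number of animals. The p-values therefore reflect the spread among libraries, which may be technical.

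Immediate early genes are switched on within minutes of a stimulus without the need for new protein. Growth factor, cytokine and stress signals reach them through MAP kinases, which act on the serum response factor Srf with its ternary complex partners and on Creb. Egr1 and Egr2 encode zinc finger transcription factors. Fos and Jun proteins pair to form AP-1, while Ier2, Ier3 and Ier5 encode small regulators of transcription, survival and the stress response. In HSCs, Egr1 is known for its link to quiescence and to retention in the niche, and Junb for restraint of myeloid expansion. The same genes are also known to respond to tissue dissociation and sorting.

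The gated values were taken as RPKM, reads per kilobase of transcript scaled to a fixed library depth, at an estimated 65.7 M to 98.2 M reads per library, read from the step between low values. The WT HSC files held size-factor-scaled gene reads, 21.3 M to 30.9 M per library, given here as CPM, reads scaled to equal library totals. They were kept apart because the units differ. One WT HSC library, WT HSC 4, stood apart: 15.2% of its reads fell on the ribosomal RNA precursor gene Rn45s against 3.06% to 5.26% in the others, and its Spearman's rho with them across genes was 0.81 to 0.82 against 0.90 to 0.93 among the other 3.

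Egr1, Ier2, Junb and Jund were lower in FSC-A High HSCs than in FSC-A Low HSCs, and Fos, Jun, Ier3 and Ier5 did not pass the test. Of the 10 members, 8 had at least 1 RPKM in at least 3 of the 7 gated libraries and were tested with limma on log2(RPKM + 1). Of these, 4 fell at a Benjamini-Hochberg adjusted p below 0.05 and none rose. Among all 10615 genes tested, 27.3% were called, 11.7% lower and 15.6% higher. For 5 of the 8, the called genes and Ier5, every FSC-A High library lay below every FSC-A Low library, as in 16.0% of all genes tested. The median log2 difference of the 8 was -0.98, beside -0.04 over all genes tested. Egr2 and Fosb did not reach the filter.

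**Figure D1:**
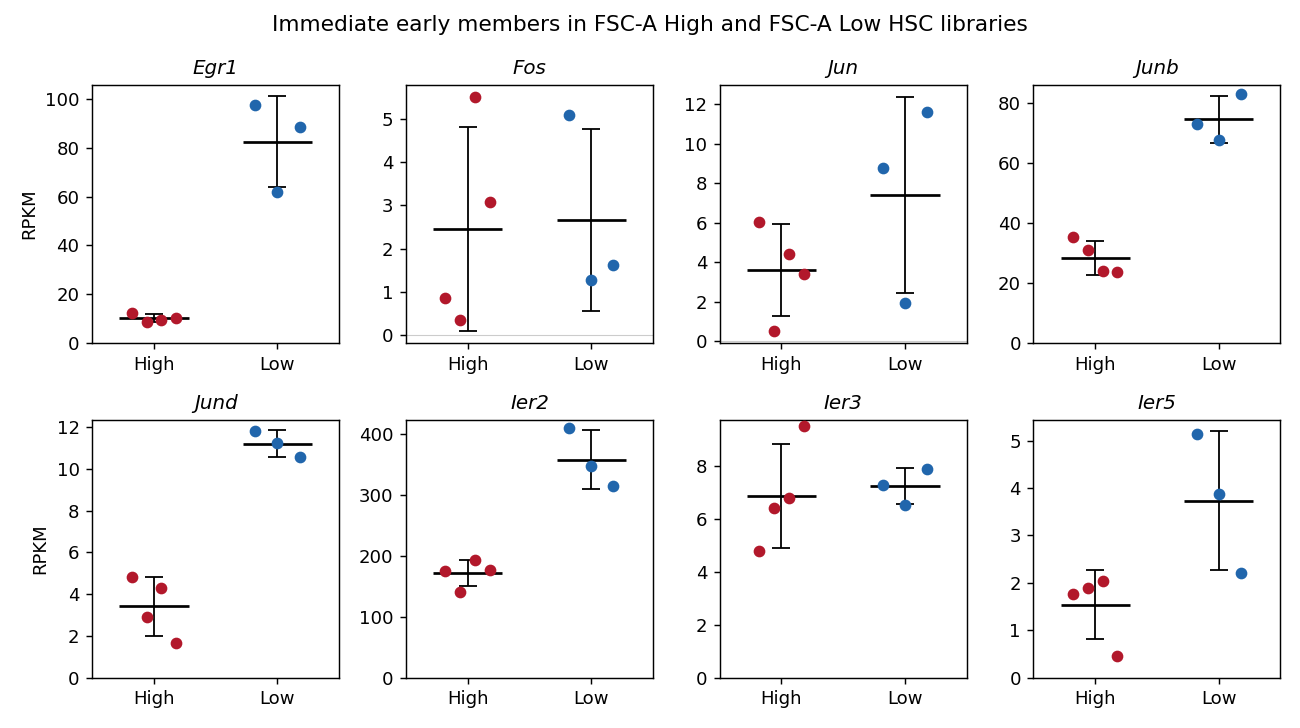
RPKM (vertical axis, linear and different in each panel) of the 8 tested members in the 4 FSC-A High (red) and 3 FSC-A Low (blue) libraries; each point is 1 library, the long bar the mean and the error bar the SD. All FSC-A High points lie below all FSC-A Low points for Egr1, Junb, Jund, Ier2 and Ier5, while the groups overlap for Fos, Jun and Ier3.

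Egr1 (chr18:34861207-34864956 on GRCm38, the span of the gene) gave the largest difference of the 8 tested members. Its level was 12.3, 8.40, 9.38 and 10.4 RPKM in FSC-A High and 97.4, 61.7 and 88.5 RPKM in FSC-A Low. Every FSC-A High library thus lay far below the lowest FSC-A Low library. The means, 10.1 ± 1.67 (SD, n = 4) and 82.5 ± 18.6 RPKM (SD, n = 3), differed 8.16-fold, or by -2.90 on the log2 scale with an SE of 0.22 (limma adjusted p = 2.75e-06). Only 3 of the 10615 genes tested had a more negative difference. Egr2, which encodes the related factor Krox20, was listed at 0 in all 7 gated libraries.

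In the Jun family, Junb and Jund fell and Jun did not pass the test. Junb (chr8:84976909-84978748) stood at 35.2, 31.0, 24.1 and 23.6 RPKM in FSC-A High and at 73.1, 67.8 and 83.2 RPKM in FSC-A Low. The groups were well apart, with a 2.62-fold ratio of means, and the log2 difference was -1.38 with an SE of 0.19 (limma adjusted p = 2.78e-04). Jund (chr8:70697739-70700616), whose product is the family member most often described as restraining growth, stood at 4.84, 2.88, 4.27 and 1.67 RPKM in FSC-A High and at 11.8, 11.3 and 10.6 RPKM in FSC-A Low. It differed 3.28-fold, or by -1.53 on the log2 scale (SE 0.33, limma adjusted p = 0.00433). Its FSC-A Low libraries lay close together (coefficient of variation, CV, 5.64%), while those of FSC-A High were spread (41.7%). The files list a pair of Jund transcripts with equal values, so they were not told apart.

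Jun (chr4:95049036-95052222), the founding AP-1 subunit, was low and uneven. It stood at 6.05, 0.496, 4.41 and 3.40 RPKM in FSC-A High and at 8.75, 1.92 and 11.6 RPKM in FSC-A Low. The replicate 2 libraries were the lowest of both groups, and the groups overlapped. The log2 difference was -0.84, with a 95% interval from -2.07 to 0.40 (limma adjusted p = 0.304), an interval that includes the difference of Junb. Without FSC-A Low 2 the difference was -1.48 (adjusted p = 0.0647), without FSC-A High 2 it was -0.36 and without FSC-A Low 3 it was -0.42.

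The windows around the annotated starts of 1 AP-1 gene that fell and 2 that did not pass the test are shown to compare their signal-response motifs. They run from 250 bases before to 50 after the start, 5′ to 3′ on the gene's strand, from RefSeq on GRCm38. Capitals mark TGACG, the core of the Creb site, or TGACATCA, an octamer close to the AP-1 site.
Junb, chr8:84978699-84978998, minus strand: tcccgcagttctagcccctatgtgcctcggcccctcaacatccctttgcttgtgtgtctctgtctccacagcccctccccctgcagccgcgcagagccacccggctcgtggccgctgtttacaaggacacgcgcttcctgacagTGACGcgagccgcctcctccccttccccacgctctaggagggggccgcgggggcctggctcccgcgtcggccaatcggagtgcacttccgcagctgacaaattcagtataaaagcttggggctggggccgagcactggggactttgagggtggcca
Fos, chr12:85473640-85473939, plus strand: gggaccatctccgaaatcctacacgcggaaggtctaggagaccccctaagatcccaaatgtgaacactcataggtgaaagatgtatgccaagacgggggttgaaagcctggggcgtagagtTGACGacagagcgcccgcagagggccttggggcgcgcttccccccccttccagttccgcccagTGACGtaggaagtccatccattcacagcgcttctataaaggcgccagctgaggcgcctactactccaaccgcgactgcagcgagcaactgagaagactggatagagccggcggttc
Jun, chr4:95052173-95052472, minus strand: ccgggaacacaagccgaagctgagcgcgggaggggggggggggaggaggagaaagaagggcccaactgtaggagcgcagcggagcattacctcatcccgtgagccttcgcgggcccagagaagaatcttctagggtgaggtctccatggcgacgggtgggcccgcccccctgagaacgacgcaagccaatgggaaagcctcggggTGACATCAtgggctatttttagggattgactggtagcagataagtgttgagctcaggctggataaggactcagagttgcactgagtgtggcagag
The Creb core lies once in the Junb window and at 2 places in the Fos window, and the octamer lies in the Jun window. Windows were matched for 8 of the 10 members and searched on both strands. Egr1 and Ier2, which are among the 4 that fell, were not matched, so the counts cover Junb and Jund alone of the called genes. TGACG was found in 4 of the 8 (Egr2, Fos, Fosb and Junb) and in 20.8% of 32851 windows of all genes. For each motif, a member was counted once if any of its windows matched, and Egr2 had several windows. The shares over all genes are per window, so the measures are not alike. TGACATCA was found in Jun alone of the 8, and in 3.62% of all windows. The full Creb site TGACGTCA, which contains the core, and the AP-1 site TGANTCA were in none of the 8 (1.79% and 7.81% of all windows). The Egr site GCGNGGGCG, which can overlap the GC box GGGCGG, was in Fosb (5.55% of all windows), and the GC box itself in 6 of the 8 (35.7%). Junb and Jund, the called genes with a window, had no GC box. The Jund window held none of these motifs.

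The CArG box, the letters bound by Srf, was in the windows of Egr2 and of no other matched member, against 1.63% of all windows. Sites more than 250 bases before or 50 after a start were not searched for any of these motifs. A window without a match thus does not show that the gene lacks the site. Of 5 annotated Egr2 starts, 4 windows held it, and 1 of them is shown with the CArG box and the Creb cores in capitals because that gene was at 0 in every gated library.
Egr2, chr10:67537619-67537918, plus strand: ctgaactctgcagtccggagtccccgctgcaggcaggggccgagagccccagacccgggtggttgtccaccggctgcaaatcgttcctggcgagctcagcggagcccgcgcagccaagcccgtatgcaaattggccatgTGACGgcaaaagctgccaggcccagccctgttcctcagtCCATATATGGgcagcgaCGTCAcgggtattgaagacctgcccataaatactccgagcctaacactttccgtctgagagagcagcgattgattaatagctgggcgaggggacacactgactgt

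Fos was low and uneven in the gated libraries and did not pass the test, and Fosb was near absent. Fos (chr12:85473890-85477274), the partner of Jun proteins in AP-1, stood at 0.858, 0.360, 5.51 and 3.08 RPKM in FSC-A High and at 5.08, 1.27 and 1.62 RPKM in FSC-A Low. Each group held both low and high libraries, and the ranges overlapped almost fully. The log2 difference was -0.21, with a 95% interval from -1.37 to 0.95 (limma adjusted p = 0.809), and its sign turned without FSC-A High 2 (0.15) or without FSC-A Low 1 (0.23). Fos had the highest CV of the 8 tested members in both groups, 96.2% and 79.3%, where the median gene had 26.0% and 26.1%. Fosb was listed at 0 in 6 of the 7 gated libraries and at 0.156 RPKM in FSC-A High 3, which was also the library with the most Fos in its group.

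Among the Ier genes, Ier2 fell, while Ier5 and Ier3 did not pass the test. Ier2 (chr8:84661331-84662852), a short nuclear factor of growth factor responses, was the most abundant member in every gated library. It stood at 175, 141, 193 and 177 RPKM in FSC-A High and at 409, 347 and 314 RPKM in FSC-A Low. The groups did not overlap, with a 2.08-fold ratio of means, and the log2 difference was -1.05 with an SE of 0.15 (limma adjusted p = 2.48e-04). Ier5 (chr1:155096367-155099636), known to act with the heat shock factor Hsf1, stood at 1.77, 1.89, 2.03 and 0.456 RPKM in FSC-A High and at 5.13, 3.87 and 2.20 RPKM in FSC-A Low. Its groups did not overlap but came close, at 2.03 and 2.20 RPKM. The log2 difference was -0.91 (SE 0.38, limma adjusted p = 0.0904), and it passed only with the library total of gene values as the scale (-1.13, adjusted p = 0.0377), under which the median over all genes was -0.30 in place of -0.04. Ier3 (chr17:35821713-35822911), which encodes the survival regulator IEX-1, stood at 4.79, 6.42, 6.79 and 9.52 RPKM in FSC-A High and at 7.30, 6.52 and 7.89 RPKM in FSC-A Low. Its FSC-A Low libraries lay within the FSC-A High range, and the log2 difference was -0.09 with a 95% interval from -0.72 to 0.54 (limma adjusted p = 0.844). With the trends over transcript length and GC content removed, the difference of Ier3 was -0.57 (limma adjusted p = 0.185), the most negative of its 20 settings.

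**Figure D2:**
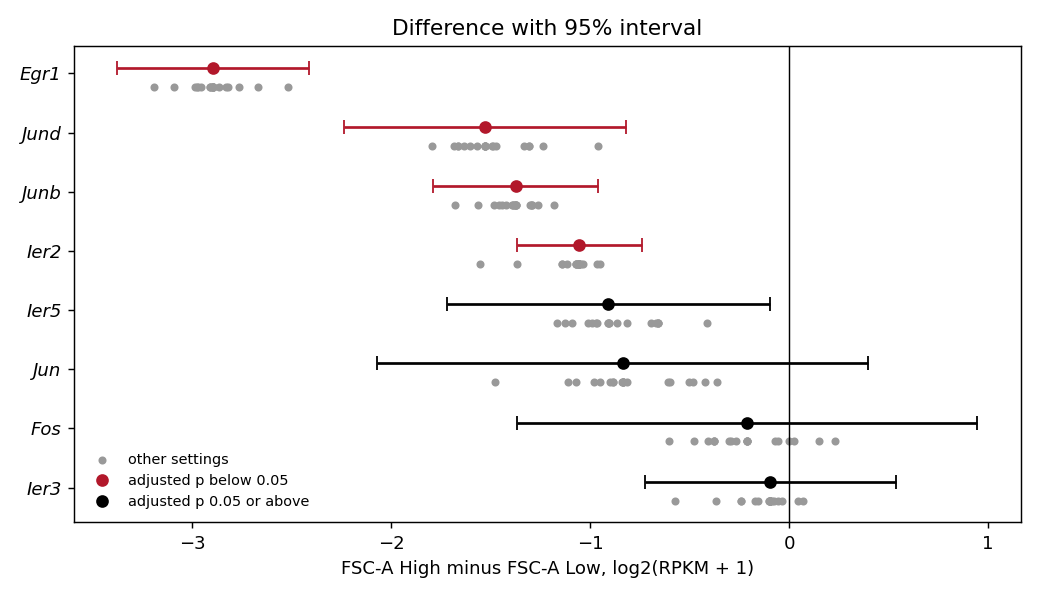
FSC-A High minus FSC-A Low on log2(RPKM + 1) (horizontal axis) for the 8 tested members; large points are the estimates with their 95% intervals, red where the limma adjusted p was below 0.05, and small grey points are the same difference under the other settings tried. Egr1, Jund, Junb and Ier2 stay left of 0 in all of those settings, and so do Jun and Ier5, whose estimates are not red. The grey points of Fos and Ier3 lie on both sides.

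The 4 calls held in every setting tried. Egr1 ranged from -3.19 to -2.52, Junb from -1.68 to -1.18, Jund from -1.79 to -0.96 and Ier2 from -1.55 to -0.95 over 20 settings each. With the trends over transcript length and GC content removed, the differences were -2.67 for Egr1, -1.18 for Junb, -1.24 for Jund and -1.06 for Ier2, with limma adjusted p of at most 0.0121.

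The order of the mean levels, which RPKM allows because it is per length, differed between the gates at several places. In FSC-A High the order was Ier2 (171 RPKM), Junb (28.5), Egr1 (10.1), Ier3 (6.88), Jun (3.59), Jund (3.41), Fos (2.45) and Ier5 (1.54). The ranges of Ier2, Junb and Egr1 did not overlap, while neighbours from Egr1 down to Ier5 did. In FSC-A Low, Egr1 (82.5 RPKM) and Junb (74.7) shared the place after Ier2 (357) with overlapping ranges. Jund (11.2), Jun (7.42) and Ier3 (7.24) followed and overlapped in turn, and then came Ier5 (3.73) and Fos (2.66), which overlapped as well. Jund and Ier3 lay clear of Ier5 and Fos, while the wide range of Jun, 1.92 to 11.6 RPKM, overlapped both. Junb made up 73.5% to 90.2% of the summed RPKM of the Jun family in FSC-A High and 78.0% to 83.7% in FSC-A Low. Fos was at 1.05% to 16.8% of that Jun family sum in FSC-A High and at 1.54% to 5.43% in FSC-A Low. Junb was thus the main Jun family transcript in every gated library.

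The genes most like a member were taken by the root mean square distance between log2(RPKM + 1) profiles over the 7 gated libraries, each centred on its mean. The nearest to Egr1 were Atf7ip (distance 0.28) and Wac (0.30). Atf7ip stood at 8.22 ± 0.866 RPKM (SD, n = 4) against 54.4 ± 6.60 (SD, n = 3), a log2 difference of -2.59, and Wac at 7.18 ± 1.49 against 48.6 ± 19.7 RPKM. The nearest to Junb were Rftn1 (0.09) and Isoc1 (0.12), to Jund Gsr (0.08) and Tprgl (0.11), and to Ier2 Mgrn1 (0.08) and Hoxa10 (0.09). In all 8 of these the FSC-A High libraries lay below with no overlap, as in 16.0% of all genes tested. These genes were chosen for likeness to the members over the same 7 libraries. Their lack of overlap, and the overlap of those nearest to Fos and Jun, thus follows from the choice and is not a separate result. The nearest to Fos were Ms4a6c (0.31) and the small nucleolar RNA entry Snord33 (0.34), and to Jun Spata2l (0.31) and Rab33b (0.36), all with overlapping groups. Among the members themselves, Junb and Jund were the closest (0.31) and Egr1 and Fos the farthest apart (1.53).

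Other genes of the pathway were read from 6 lists with 82 tested genes, of which 14 fell in FSC-A High and 4 rose, beside 11.7% lower and 15.6% higher among all genes. The median log2 difference of the 82 was -0.29. Without FSC-A High 3 the calls were 11 in place of 18, without a filter on low values they were 10, and with library totals as the scale they were 30.

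In the MAP kinase cascades, 5 of 17 tested genes were called, each lower in FSC-A High, and 12 did not pass. Rps6ka1, which encodes the ribosomal S6 kinase Rsk1, had a mean level of 57.6 ± 2.56 (SD, n = 4) against 134 ± 5.32 RPKM (SD, n = 3) in FSC-A Low. Mapk14, which encodes p38 alpha, stood at 22.4 ± 7.06 against 56.7 ± 16.8 RPKM. The Jnk gene Mapk9 (-0.73), named after its value was seen, was among the others. Of the Srf, ternary complex and Creb factors, 2 of 11 fell: Mrtfa, a coactivator of Srf, at 3.44 ± 0.999 against 8.75 ± 2.71 RPKM, and the ternary complex factor gene Elk4 at 1.51 ± 0.499 against 4.14 ± 1.26 RPKM. Of the Egr partners, 2 of 4 were tested and 1 fell. It was Nab1, a corepressor that binds Egr proteins, at 1.54 ± 0.684 against 6.89 ± 1.72 RPKM.

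Among other AP-1 and Maf factors, none of 8 tested genes fell and 1 rose. Batf, whose product pairs with Jun proteins, stood at 50.7, 58.9, 68.1 and 55.1 RPKM in FSC-A High and at 30.9, 28.2 and 29.2 RPKM in FSC-A Low. Its groups did not overlap, and its difference of 0.95 (limma adjusted p = 0.00143) had the opposite sign to those of Junb and Jund. Of the other immediate early genes, 6 of 35 fell, 1 rose and 28 did not pass, with a median of -0.58. Cebpb, a factor of myeloid differentiation and emergency granulopoiesis, stood at 16.9 ± 10.5 against 126 ± 40.3 RPKM. The MAP kinase phosphatase genes Dusp2 and Dusp5 stood at 66.7 ± 29.5 against 198 ± 63.0 and at 19.2 ± 13.8 against 74.0 ± 6.35 RPKM. The gene that rose, Rgs2 (1.00), a regulator of G protein signalling, was named after its value was seen.

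**Figure D3:**
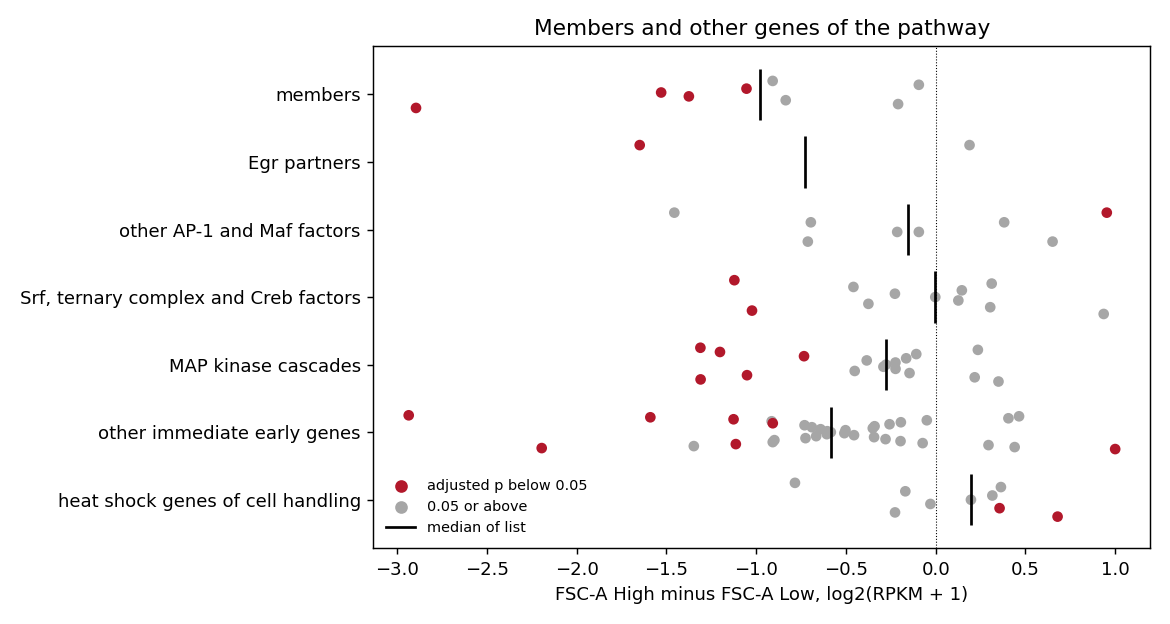
FSC-A High minus FSC-A Low on log2(RPKM + 1) (horizontal axis) for the 8 tested members and the tested genes of 6 other lists; each point is 1 gene, red where the limma adjusted p was below 0.05, vertical bars are the medians, and the vertical spread within a row has no meaning. The members have the lowest median, -0.98, and the heat shock genes the highest, 0.20.

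Of 9 tested heat shock genes, a class that also responds to cell handling, none fell and 2 rose, Hsp90ab1 (0.36) and Hsp90aa1 (0.68), with a median of 0.20. Of 12 HSC marker genes, 8 were lower in FSC-A High, as the 4 called members were, and none was called higher. Among all genes tested, 11.7% were called lower and 15.6% higher. The summed level of the 12 markers was 425 to 506 RPKM against 699 to 849 RPKM. In bulk libraries, fewer cells of a type and less RNA per cell cannot be told apart. Of the genes of the 3 markers that the cells were sorted to carry, Kit was lower, at 20.9 ± 3.37 (SD, n = 4) against 54.7 ± 6.22 RPKM (SD, n = 3). Ly6a, which encodes Sca1, stood at 27.4 ± 12.6 against 12.8 ± 1.59 RPKM with overlapping groups, a log2 difference of 0.92 that missed the threshold (limma adjusted p = 0.0518). Slamf1, which encodes CD150, stood at 6.24 ± 2.58 against 8.83 ± 2.48 RPKM and did not pass either (-0.49, limma adjusted p = 0.344). The part of the HSC markers in the result was not tested.

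Markers of other cells ranged from near 0 to sums above the level of most members. Summed over 8 macrophage genes the level was 14.7 to 29.0 RPKM in FSC-A High and 10.2 to 16.1 in FSC-A Low, with Adgre1, Csf1r, Cd163, Vsig4 and Marco under 1 RPKM in all 7 libraries. The 6 granulocyte genes found summed to 2.61 to 9.48 against 2.86 to 12.2 RPKM, the 5 endothelial genes to 3.12 to 7.93 against 9.72 to 16.7, the 5 lymphoid genes to 2.22 to 3.49 against 0.538 to 1.64, and the 5 megakaryocyte genes to 69.6 to 103 against 52.3 to 67.0 RPKM. Hepatocyte genes, 7 in number, summed to 57.2 to 67.0 against 51.9 to 74.5 RPKM, with Serpina1a under 1 RPKM in all 7. The 7 erythroid genes summed to 110 to 237 against 68.2 to 100.3 RPKM, with Hba-a1, Alas2 and Slc4a1 under 1 RPKM in all 7. The endothelial sums were higher in FSC-A Low, and the erythroid, megakaryocyte and lymphoid sums higher in FSC-A High, each with no overlap. Few of their genes were tested. The 1 endothelial gene tested fell in FSC-A High, while 1 of 2 erythroid genes and the 1 lymphoid gene tested rose. None of 4 megakaryocyte genes tested was called. The part of these markers in the result was not tested.

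In the ungated WT HSC libraries the same genes varied widely, and the 8 members with a mean of at least 5 CPM were all highest in WT HSC 4, the library rich in Rn45s. That library held the highest value for 28.3% of the 10140 genes at this level. Egr1 stood at 23.3, 75.0, 22.1 and 227 CPM in WT HSC 1 to 4, which rest on 721, 1598, 601 and 6801 reads. It thus spanned 10.3-fold between libraries of 1 group, with a CV of 111% (mean 86.9 ± 96.7 CPM, SD, n = 4), or 75.2% without WT HSC 4. The CV of the median gene was 34.6%, and 98.3% of genes at this level varied less than Egr1.

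Junb stood at 35.2, 17.5, 18.9 and 103 CPM, Jun at 13.8, 4.51, 5.99 and 32.3 CPM and Jund at 29.8, 10.04, 9.45 and 45.5 CPM. For these 3 genes the order of the libraries was nearly shared, with WT HSC 4 first and WT HSC 1 next. Ier2 was at 201, 147, 123 and 343 CPM, with the same first and next library and a CV of 48.5%. Ier5 was at 17.0, 9.62, 17.0 and 32.2 CPM and Ier3 at 39.2, 73.6, 97.1 and 131 CPM, so WT HSC 1 was the lowest library for Ier3 although it was next to the highest for the Jun genes.

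Fos and Fosb followed another order. Fos stood at 21.4, 53.4, 8.27 and 72.3 CPM, high in WT HSC 2 and 4. Fosb was read 18, 252, 5 and 0 times, or at 0.583, 11.8, 0.184 and 0 CPM. It was thus near absent but for WT HSC 2, and at 0 in the library with the most Fos and Egr1, where 3 reads would be 0.100 CPM. That library, WT HSC 4, had 11384 genes above 0 against 12909 to 13368 in the others, so a 0 there does not show absence. Egr2 had 1 read in all 4 libraries together.

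**Figure D4:**
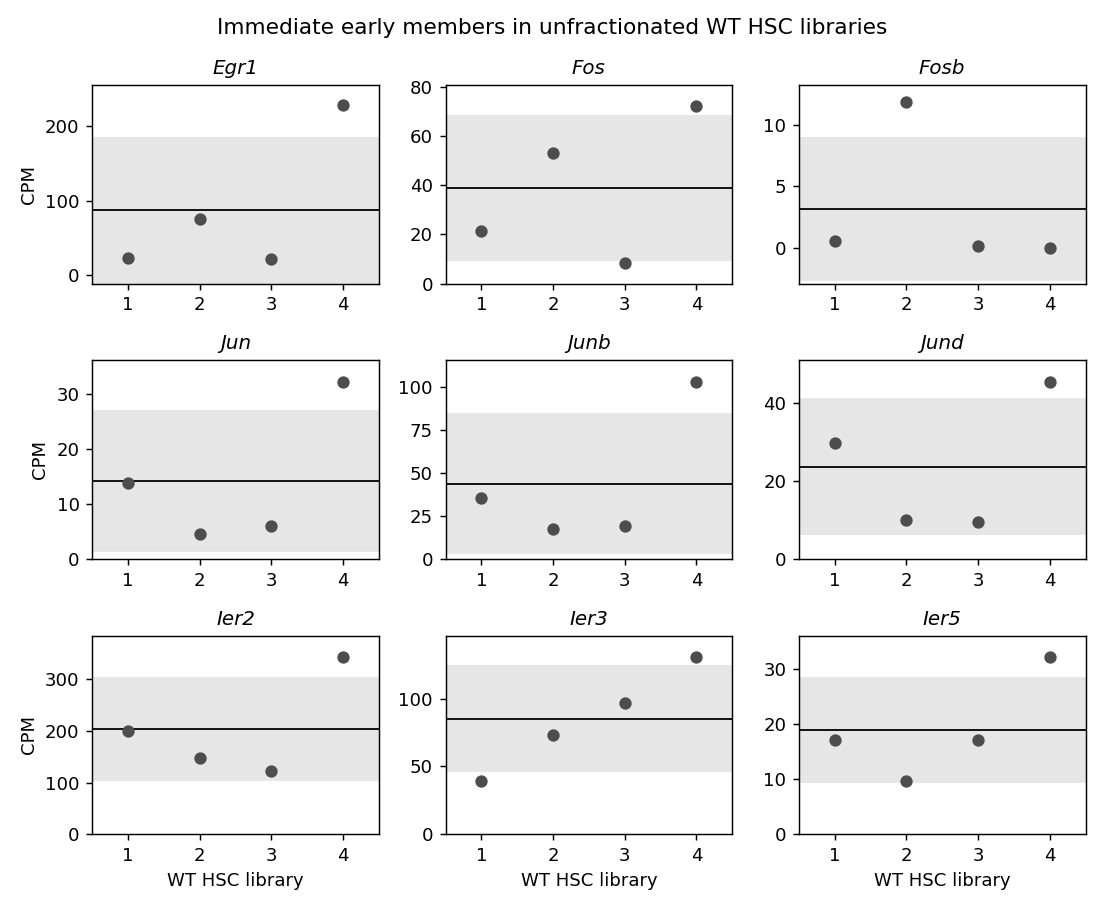
CPM (vertical axis, linear and different in each panel) of 9 members in WT HSC libraries 1 to 4 (horizontal axis); each point is 1 library, the line the mean and the grey band the mean with 1 SD to each side. WT HSC 4 is highest for every gene shown except Fosb, whose only high value, 11.8 CPM, is in WT HSC 2.

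With Rn45s left out of the total, WT HSC 4 stood above the mean of the other 3 by 2.12-fold (Ier3) to 6.39-fold (Egr1) in the 8 genes, where the median of all genes was 1.00-fold. The share of all genes highest in WT HSC 4 was 35.7% on that scale, against 28.3% with Rn45s kept in. The counts and values that follow are CPM with Rn45s kept in. Of the other immediate early genes, 22 of 32 at this level were highest in WT HSC 4, against 2 of 9 heat shock genes and 11 of 20 MAP kinase cascade genes. Dusp2 stood at 67.8, 127, 114 and 477 CPM and Cebpb at 18.5, 24.8, 15.0 and 103 CPM, both highest in this library. Not all named genes that fell in FSC-A High were: Nab1 was lowest there, at 80.8, 53.2, 69.3 and 22.7 CPM, and Mrtfa was highest in WT HSC 3, at 27.9 CPM. The HSC markers summed to 3235, 2571, 2637 and 3485 CPM. The hepatocyte genes summed to 87.8, 98.7, 88.5 and 15.0 CPM, the macrophage genes to 77.4, 123, 124 and 48.0 CPM and the endothelial genes to 70.7, 62.2, 65.1 and 147 CPM. WT HSC 4 was lowest in the hepatocyte and macrophage sums and highest in the endothelial one, and the part of these in the levels of the members was not tested.

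Because the tables were scaled separately, levels were set against Ier2 within each library, per transcript length. Egr1 was at 7.04%, 5.96%, 4.85% and 5.88% of Ier2 in FSC-A High and at 23.8%, 17.8% and 28.2% in FSC-A Low. In WT HSC 1 to 4 it was at 5.83%, 25.6%, 9.02% and 33.2%. WT HSC 1 thus lay in the FSC-A High range and WT HSC 2 in the FSC-A Low range, WT HSC 3 lay between both ranges and WT HSC 4 above both. Fos was at 0.255% to 2.85% of Ier2 over the 7 gated libraries and at 4.87% to 26.3% in WT HSC, with no overlap. Ier3 was at 1.78% to 5.40% in the gated libraries and at 26.3% to 107% in WT HSC, again with no overlap. The gap was not particular to Fos and Ier3. Jund was at 0.944% to 3.36% in the gated libraries and at 6.24% to 13.5% in WT HSC. Ier5 was at 0.258% to 1.34% and at 3.04% to 6.44%, while Junb and Jun overlapped. Gated values count reads per RefSeq transcript and WT HSC values reads per gene symbol, and the libraries were deposited in different forms, so these gaps are given side by side with no test and counting and cells cannot be told apart.

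**Figure D5:**
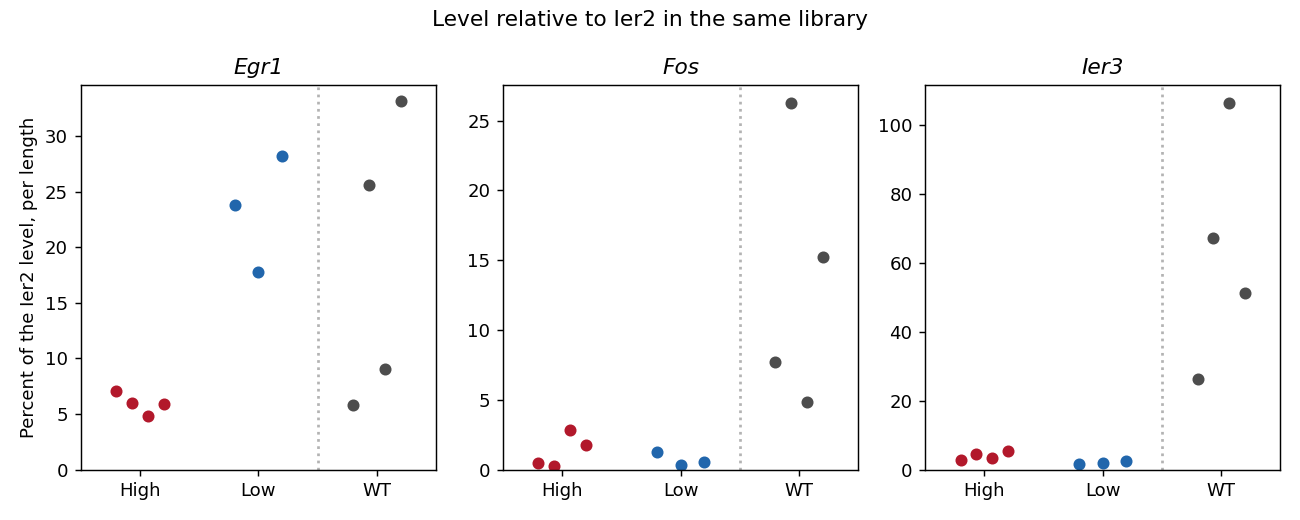
Level of Egr1, Fos and Ier3 as a percentage of the Ier2 level per transcript length in the same library (vertical axis, linear) for FSC-A High (red), FSC-A Low (blue) and WT HSC (grey); each point is 1 library and the dotted line divides tables of different units. Egr1 is at 4.85% to 7.04% in FSC-A High and 17.8% to 28.2% in FSC-A Low, and all WT HSC points of Fos and Ier3 lie above all gated points.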

How the data were processed

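RNA of 11 libraries from sorted newborn liver HSCs was sequenced by Smart-seq2, a full-length cDNA method for small inputs. STAR, DESeq2 and mm10 are named in the submitters' processing notes, without versions or roles. The authors deposited the gated files as 1 value per RefSeq transcript (33984), taken here as RPKM: no label or header names the unit, but value times transcript length sums to 102% to 104% of the total that RPKM implies, and RPKM and FPKM cannot be told apart. The deposited WT HSC files hold a signal per gene symbol (23420) that became whole reads within 0.01 for 100% of values after multiplication by 1 factor per library. No count test was run on them because all belong to 1 group. In these files 27 symbols had been turned into dates.

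For each gene the transcript of highest mean in the gated files was kept. Groups were taken from the sample titles. The test between both gates was that of limma 3.58.1 (R 4.3.3; lmFit, eBayes with trend, group as the only term) on log2(RPKM + 1), which understates the change of low genes, with Benjamini-Hochberg adjustment over all genes tested. Symbols and coordinates came from RefSeq's GRCm38 table, and lengths and GC content from GENCODE M21 transcripts. The alternatives were 4 scalings (TMM from edgeR 4.0.16 among them), pseudocounts of 0.5 and 5, other filters, each library left out, the replicate number as a block, transcript sums, quality weights and removal of trends. For WT HSC, CPM without Rn45s was chosen after seeing the data. Genes named were the members, up to 3 called genes of each list with the smallest p, and the 2 most alike genes of 6 members. This test was also run on simulated data with known changes. Some genes of the lists are counted but not reported here by name. The members and lists were chosen with earlier results of these data known. Tables and plots were made with Python 3.11.15, pandas 2.3.3 and matplotlib 3.10.9.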

Additional observations from a re-analysis of the deposited data

Results flagged for a closer look

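In groups of 4 libraries, a library was singled out when its gap to the nearest other exceeded the 95% critical value of Dixon's test. Of 44 such groups, 4 held one. The chance rate of about 1 in 20 holds for normally distributed values. It does not apply to Fosb in FSC-A High or Egr2 in WT HSC, where all other libraries were at 0 and the ratio is 1 for any value. Fosb was at 0.156 RPKM in FSC-A High 3 and listed at 0 in the other FSC-A High libraries. Ier5 was at 0.456 RPKM in FSC-A High 4, the lowest of its group, where the others lay between 1.77 and 2.03 RPKM; without that library its log2 difference was -0.66 in place of -0.91. Fosb was at 11.8 CPM in WT HSC 2, where the other WT HSC libraries held at most 0.583 CPM. Egr2 was at 0.0469 CPM, a single read, in WT HSC 2 and at 0 in the other 3.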

How the results depend on the processing

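The 4 members called lower kept their direction and their call under all 20 alternatives. Among all genes tested, 1654 were higher and 1245 lower, together 2899. The total was 1807 with the trends over length and GC content removed, and 2187 to 2777 with 1 library left out. With library totals as the scale, 975 were higher and 2272 lower. That scaling moved the median of all genes to -0.30, and upper quartile scaling moved it to -0.12 (1439 higher, 1462 lower). The 18 calls in the pathway lists became 30 with library totals, 10 without a filter and 11 to 17 with 1 library left out. Differences of members that did not pass turned sign for Fos without FSC-A High 2 (0.15), without FSC-A Low 1 (0.23) and with the expression level trend removed (0.027), and for Ier3 without FSC-A High 1 (0.043) and with the expression level trend removed (0.072). With 1 library left out, Fos ranged from -0.60 to 0.23 and Ier3 from -0.24 to 0.043. The cause was not tested. No pairing by replicate number was seen across genes. Same-numbered deviations correlated at -0.03, 0.06 and 0.00, and FSC-A High 1 went best with FSC-A Low 3. These are deviations from means of 4 and 3 libraries, so small correlations do not show that the libraries were unpaired. With the replicate number as a block, 2428 genes, 4 members and 15 pathway genes were called. For Jun the block lowered the SE from 0.57 to 0.36, with a limma adjusted p of 0.107. In WT HSC, 8 members were at 1 CPM or more in all libraries under every alternative. On the deposited scale those 8 were highest in WT HSC 4 as well, as were 36.4% of all genes with a mean of at least 5 CPM. Fos rests on an estimated 61.4 to 831 reads per gated library and Ier5 on 127 to 1244, against 2035 or more for Egr1, and the intervals cover the spread between libraries only.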
